A study of Sus scrofa with 9 samples.

Results

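Metalloproteinases, cathepsins and serpins were followed through the transplanted pig kidney as 78 genes of the 12362 that the array annotation named by a single symbol. A gene was taken when its symbol began with ADAM, with MMP and a digit, with SERPIN, or with CTS and a letter (CTSS left aside), and it was read from its probe set of highest mean over all arrays. The rule reads gene names and no values, although it was set with earlier results of these data known, and it gave 35 ADAM, 14 MMP, 20 SERPIN and 9 CTS genes. Biopsies came from 30 kg male Yorkshire pigs, with 1 Affymetrix array per kidney and separate biological replicates per the labels. Every kidney had 30 min of warm ischemia, was flushed, and was returned to its own animal, after which the other kidney was removed. For NEVKP kidneys (n = 3), normothermic ex-vivo kidney perfusion on a warm circuit outside the body came first and lasted 8 h. SCS kidneys (n = 3) lay in static cold storage for 8 h. No Storage kidneys (n = 3) were returned directly. All biopsies were taken on post-operative day 3, so warm ischemia, flushing and transplantation are shared by the controls, and no kidney outside the transplant procedure was measured here.

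Matrix metalloproteinases (MMPs) are zinc enzymes that cut collagens, gelatin and other proteins of the extracellular matrix. ADAMs are mostly membrane-bound relatives that release growth factors, cytokines and receptors from cell surfaces, and the secreted ADAMTS branch trims proteoglycans and procollagens. Cathepsins digest protein inside lysosomes, where the proximal tubule breaks down what it reabsorbs from the filtrate. Serpins inhibit serine proteases of clotting, fibrinolysis and inflammation by trapping them in a covalent complex, although some members act instead as hormone carriers or as a collagen chaperone.

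Values are deposited log2 intensities, on which a difference of 1 is a doubling, and all adjusted p-values come from limma over 19124 probe sets. Array medians ran from 5.70 to 5.74 in No Storage kidneys and from 5.74 to 5.80 in NEVKP and SCS kidneys. Every NEVKP and SCS median was above every No Storage median. The arrays with the lowest limma weights, NEVKP replicate 2 (0.57) and SCS replicate 2 (0.46), stood farthest out on the second principal component, on opposite sides. Kidney markers were present: none of the 6 proximal tubule, 5 thick ascending limb and distal or 9 collecting duct markers measured was dim, meaning in the lowest 25% of probe sets (mean log2 under 3.92). Of the 78 genes, 18 were dim: 8 ADAM, 5 MMP, 5 SERPIN and 0 CTS genes.

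On day 3 the ADAM mean was a little above No Storage in both stored groups and the MMP mean in SCS kidneys, while cathepsins and serpins overlapped with No Storage. These family means were given no test. Relative to the mean of the No Storage arrays, the average over the 35 ADAM genes read 0.10, 0.14 and 0.16 in NEVKP kidneys, 0.14, 0.26 and 0.15 in SCS kidneys, and 0.01, -0.04 and 0.03 in No Storage kidneys. For this ADAM mean, all 6 stored kidneys thus lay above all 3 No Storage kidneys. The NEVKP minus No Storage difference was 0.13, or 0.078 with arrays centred on their medians. The 17 ADAMTS and ADAMTS-like genes alone overlapped between NEVKP (0.03, -0.01 and 0.08) and No Storage kidneys (0.03, -0.02 and -0.003). Their SCS arrays (0.08 to 0.28) lay above No Storage. Without these and ADAMDEC1, the mean of the remaining 17 ADAM genes lay above No Storage in both stored groups. For the 14 MMP genes the mean was -0.03, 0.42 and 0.15 in NEVKP kidneys, 0.11, 0.29 and 0.23 in SCS kidneys and 0.05, 0.02 and -0.07 in No Storage kidneys. Here the SCS arrays lay above No Storage, whereas the NEVKP arrays overlapped with it. The NEVKP minus No Storage difference in the MMP mean was 0.18, and 0.058 without NEVKP replicate 2. The 9 CTS genes averaged 0.03, 0.22 and 0.02 in NEVKP kidneys, -0.05, -0.07 and 0.08 in SCS kidneys and 0.06, -0.02 and -0.04 in No Storage kidneys. The 20 SERPIN genes averaged 0.14, 0.17 and 0.01 in NEVKP kidneys, 0.16, -0.08 and 0.13 in SCS kidneys and 0.05, 0.03 and -0.08 in No Storage kidneys. Both families overlapped between every pair of groups.

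**Figure D1:**
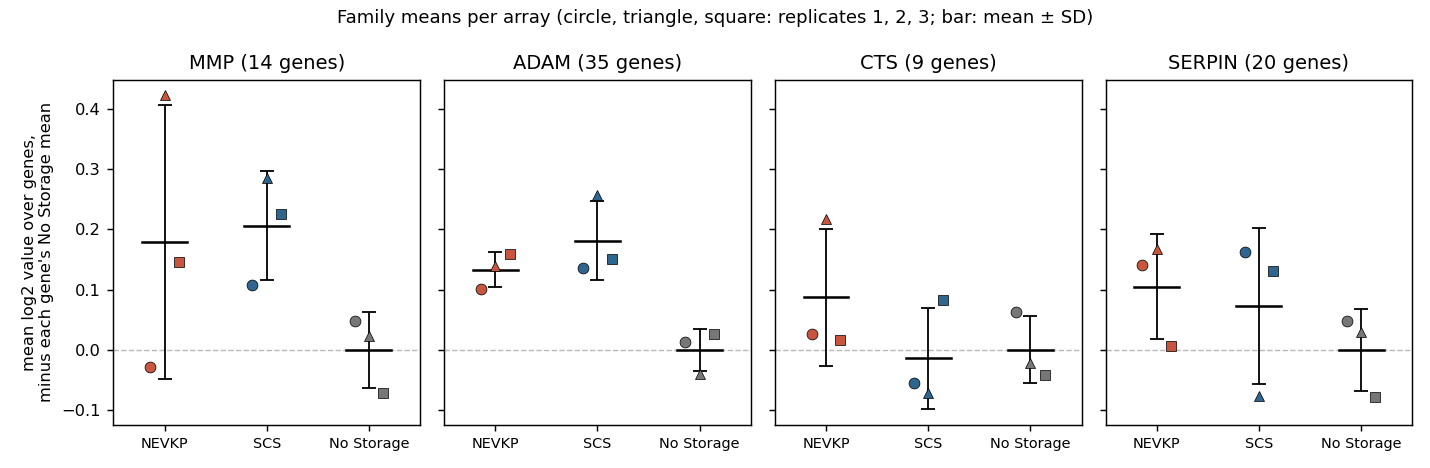
Mean log2 intensity over the members of each family, minus the No Storage mean, for each of 9 arrays; points are arrays and bars are group means with SD (n = 3). The ADAM means of NEVKP (0.10 to 0.16) and SCS (0.14 to 0.26) kidneys lie above all No Storage arrays (-0.04 to 0.03), and the CTS and SERPIN means overlap.

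For SCS against No Storage, 53 of 78 genes had a higher mean in SCS kidneys (67.9%, against 51.7% of all probe sets), and their median difference was 0.11, against 0.01 over all probe sets. None passed an adjusted p of 0.05, where 0.162% of all probe sets did. At unadjusted p under 0.05 there were 20 (25.6%), 14 higher and 6 lower in SCS kidneys, against 15.5% of all probe sets, 7.75% higher and 7.79% lower. Without No Storage replicate 2 this count was 12. The groups did not overlap for 22 genes (28.2%), against 22.9% of all probe sets: 14 were higher (background 11.3%) and 8 lower (background 11.6%). A difference over 0.5 was seen for 10 genes (12.8%, background 5.51%) and one under -0.5 for 5 (6.41%, background 5.06%). The adjusted p was closest to the threshold for ADAMTS15 and SERPINC1, both lower, and for ADAM12, higher, and the call for these 3 depended on the fit: leaving out NEVKP replicate 2 brought ADAMTS15, SERPINC1 and MMP19 past the threshold, and leaving out SCS replicate 3 brought ADAM12 past it.

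For NEVKP against No Storage, 50 of 78 genes were higher in NEVKP kidneys (64.1%, against 47.7% of all probe sets), with a median difference of 0.12, against -0.01 over all probe sets. No gene passed the adjusted threshold in limma, and 0% of all probe sets did. At unadjusted p under 0.05 there were 14 (17.9%), 8 higher and 6 lower, against 9.07% of all probe sets, 4.67% higher and 4.40% lower. This count was 8 without No Storage replicate 2 and also 8 without NEVKP replicate 2. The groups did not overlap for 23 genes (29.5%), against 16.5% of all probe sets: 16 were higher (background 7.94%) and 7 lower (background 8.57%). A difference over 0.5 was seen for 13 genes (16.7%, background 4.28%) and one under -0.5 for 5 (6.41%, background 3.12%). This comparison and the one of SCS with No Storage use the same 3 No Storage arrays, so a high or low value there enters both.

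For NEVKP against SCS, 34 of 78 genes were higher in NEVKP kidneys (43.6%, against 46.0% of all probe sets). None passed the adjusted threshold in limma, as for 0% of all probe sets, and 5 (6.41%) had an unadjusted p under 0.05, 2 higher and 3 lower, against 7.50% of all probe sets, 3.80% higher and 3.70% lower. This count was 3 without SCS replicate 2 and 8 without NEVKP replicate 1. The groups did not overlap for 6 genes (7.69%), against 11.8%: 4 were higher (background 5.01%) and 2 lower (background 6.78%). A difference over 0.5 was seen for 2 genes (background 3.19%) and one under -0.5 for 3 (background 2.07%). The shares at unadjusted p and without overlap lie under those of all probe sets. The F test among the 3 groups called 0 of the 78 genes, against 0.00523% of all probe sets, and 16 had an unadjusted p under 0.05 (20.5%, against 12.8%).

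**Figure D2:**
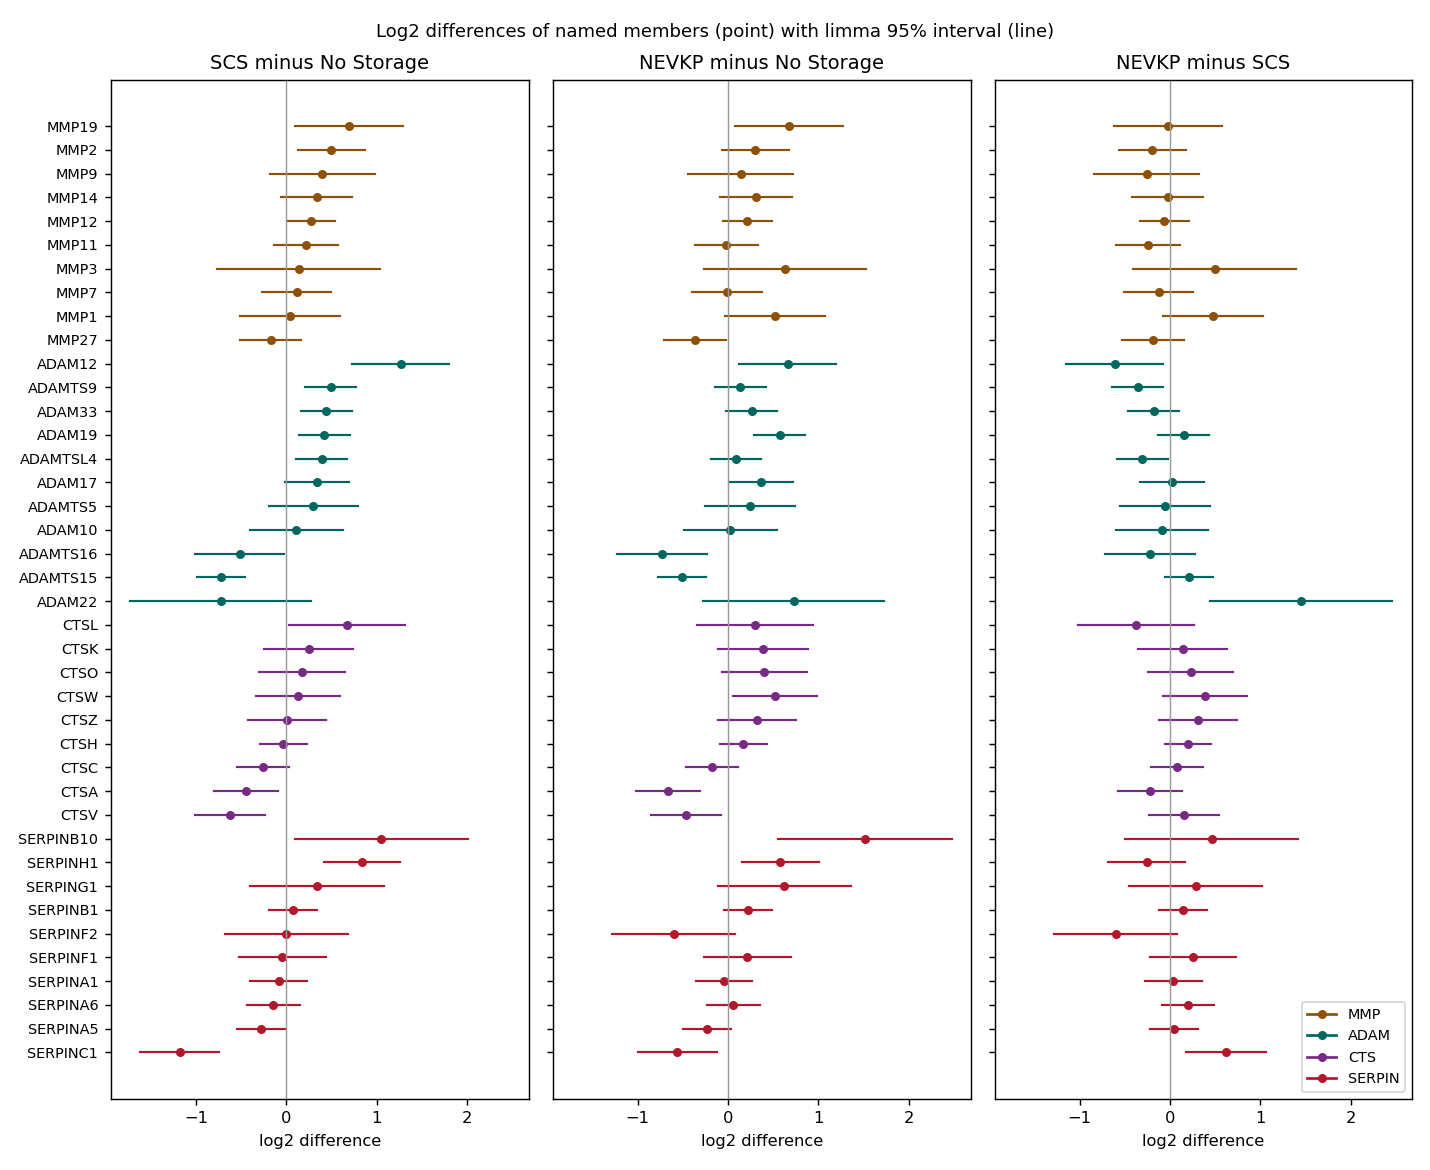
Log2 difference of 40 named genes in 3 comparisons, with 95% intervals from limma. ADAM12 (1.27), SERPINH1 (0.84) and MMP19 (0.70) lie to the right in SCS minus No Storage, and SERPINC1 (-1.18) and ADAMTS15 (-0.72) to the left.

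Among the MMPs, NEVKP kidneys were higher than No Storage kidneys for 10 of 14 genes (median 0.15) and SCS kidneys for 12 of 14 (median 0.19). MMP2, the gelatinase made by fibroblasts and mesangial cells, read 7.80, 7.97 and 8.02 in NEVKP kidneys, 7.77, 8.38 and 8.23 in SCS kidneys and 7.64, 7.48 and 7.77 in No Storage kidneys. Every stored kidney was above No Storage, although the lowest SCS value and the highest No Storage value are alike to 2 decimals. The SCS minus No Storage difference was 0.50 (SE 0.17, limma adjusted p = 0.193) and the NEVKP minus No Storage difference 0.30 (adjusted p = 0.623). MMP9, the gelatinase of neutrophils and macrophages, differed by 0.40 in SCS kidneys and 0.14 in NEVKP kidneys relative to No Storage, with 95% intervals of -0.19 to 0.98 and -0.44 to 0.72, and the first was 0.15 without No Storage replicate 3 and 0.22 without SCS replicate 1. MMP14, the membrane enzyme that activates the MMP2 proenzyme, differed by 0.33 in SCS kidneys and 0.31 in NEVKP kidneys (95% intervals -0.06 to 0.73 and -0.08 to 0.70), and by 0.21 without SCS replicate 2 and 0.48 without NEVKP replicate 3. Its membrane-bound relatives MMP15, MMP16 and MMP23B stayed within -0.20 and 0.16 of No Storage in both groups.

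MMP19, a secreted MMP that can cut basement membrane proteins, read 6.37, 7.57 and 6.42 in NEVKP kidneys, 6.86, 6.84 and 6.73 in SCS kidneys and 6.07, 6.06 and 6.20 in No Storage kidneys. All 6 stored kidneys were above No Storage, with NEVKP replicate 2 far above the other NEVKP arrays. The difference was 0.70 for SCS minus No Storage (SE 0.27, limma adjusted p = 0.252) and 0.67 for NEVKP minus No Storage (adjusted p = 0.517), the second being 0.28 without NEVKP replicate 2. MMP7, matrilysin, which is made by injured tubule epithelium, read 11.55, 12.05 and 11.90 in NEVKP kidneys, 11.89, 12.21 and 11.77 in SCS kidneys and 11.76, 11.73 and 12.04 in No Storage kidneys. Its groups overlapped, with differences of 0.12 for SCS minus No Storage (95% interval -0.27 to 0.50) and -0.01 for NEVKP minus No Storage (-0.39 to 0.38). MMP11, stromelysin 3, differed by 0.22 for SCS and -0.02 for NEVKP relative to No Storage.

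In the RefSeq annotation of Sscrofa11.1, MMP7 stands in 1 stretch with MMP27, MMP1, MMP3, MMP12 and MMP13. At most 1 other protein-coding gene lies between each of these genes and the next. The 5 genes near MMP7 were all dim while MMP7 was not. They include the collagenases MMP1 and MMP13, the stromelysin MMP3 and the macrophage elastase MMP12. MMP3 read 3.12, 4.93 and 3.04 in NEVKP kidneys, 3.19, 3.18 and 3.22 in SCS kidneys and 3.14, 3.13 and 2.91 in No Storage kidneys. Its NEVKP minus No Storage difference of 0.63 rested on NEVKP replicate 2 and was 0.01 without it. MMP1 differed by 0.52 and MMP27 by -0.36 for NEVKP minus No Storage (adjusted p = 0.567 and 0.534, limma), the MMP1 value being 0.30 without NEVKP replicate 2. MMP12 differed by 0.27 for SCS minus No Storage (limma adjusted p = 0.312).

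Catalytically active ADAMs, a group drawn up after values were seen, lay mostly above No Storage. Of these 11 genes, 2 of them dim, 10 had a higher mean in NEVKP kidneys and 10 in SCS kidneys. Over all 35 ADAM genes the counts were 24 and 25, and 47.7% and 51.7% of all probe sets were higher. ADAM12, meltrin alpha, sheds EGF receptor ligands and marks activated mesenchymal cells. It read 6.08, 6.70 and 6.79 in NEVKP kidneys, 7.45, 7.28 and 6.66 in SCS kidneys and 5.85, 6.07 and 5.66 in No Storage kidneys. Every stored kidney was above every No Storage kidney, NEVKP replicate 1 by a narrow margin, and the NEVKP and SCS arrays overlapped. SCS kidneys were 2.41-fold above No Storage, a log2 difference of 1.27 (SE 0.24, 95% interval 0.73 to 1.81, limma adjusted p = 0.0646). For NEVKP minus No Storage the difference was 0.66 (adjusted p = 0.475, limma), and for NEVKP minus SCS -0.61 (adjusted p = 0.648), or -0.39 without NEVKP replicate 1.

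ADAM19, meltrin beta, which processes neuregulin, read 6.22, 6.42 and 6.19 in NEVKP kidneys, 6.18, 6.21 and 5.99 in SCS kidneys and 5.79, 5.73 and 5.58 in No Storage kidneys. Both stored groups lay wholly above No Storage, by 0.57 in NEVKP kidneys (SE 0.13, limma adjusted p = 0.342) and 0.42 in SCS kidneys (adjusted p = 0.154). ADAM17, the sheddase of TNF and of several EGF receptor ligands, read 7.81, 8.24 and 7.72 in NEVKP kidneys, 8.06, 7.90 and 7.74 in SCS kidneys and 7.60, 7.47 and 7.61 in No Storage kidneys. Again no stored kidney was as low as the No Storage kidneys, and the differences were 0.37 for NEVKP (limma adjusted p = 0.536) and 0.34 for SCS (adjusted p = 0.335). Without NEVKP replicate 2 the NEVKP value was 0.21. ADAM10, the related sheddase of Notch and cadherins, had a dim probe set, so its differences of 0.03 and 0.11 carry little information on its level.

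ADAM33, a mesenchymal ADAM linked to asthma in humans, differed from No Storage by 0.26 in NEVKP kidneys and 0.44 in SCS kidneys (limma adjusted p = 0.567 and 0.142). ADAMDEC1, a secreted ADAM-like protease of macrophages and dendritic cells, was singled out after its values were seen, as the largest SCS minus No Storage difference among the 78 genes. It read 8.07, 6.44 and 8.34 in NEVKP kidneys, 8.81, 7.31 and 8.42 in SCS kidneys and 5.90, 6.15 and 8.10 in No Storage kidneys. No Storage replicate 3 stood within the range of the stored kidneys, and the difference of 1.46 in SCS kidneys had an SE of 0.65 (limma adjusted p = 0.315). The 10 macrophage markers measured, of 12 listed and none dim, averaged 0.20, 0.50 and 0.32 above the No Storage mean in NEVKP kidneys, 0.25, -0.29 and 0.17 in SCS kidneys and -0.02, 0.03 and -0.01 in No Storage kidneys, and their part in ADAMDEC1 was not tested.

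The remaining ADAMs hold members without an active protease site, such as ADAM11, ADAM22 and ADAM23, and members best known from the male reproductive tract. Of these 7 genes 4 were dim, and 3 were higher in NEVKP kidneys and 2 in SCS kidneys than in No Storage kidneys. ADAM22, a neuronal receptor for LGI proteins, read 5.47, 7.42 and 5.93 in NEVKP kidneys, 4.24, 5.03 and 5.20 in SCS kidneys and 5.88, 5.10 and 5.67 in No Storage kidneys. The NEVKP arrays were all above the SCS arrays, by 1.45 (SE 0.45, limma adjusted p = 0.599), the largest NEVKP minus SCS difference of the 78 genes. Without NEVKP replicate 2 it was 0.88.

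**Figure D3:**
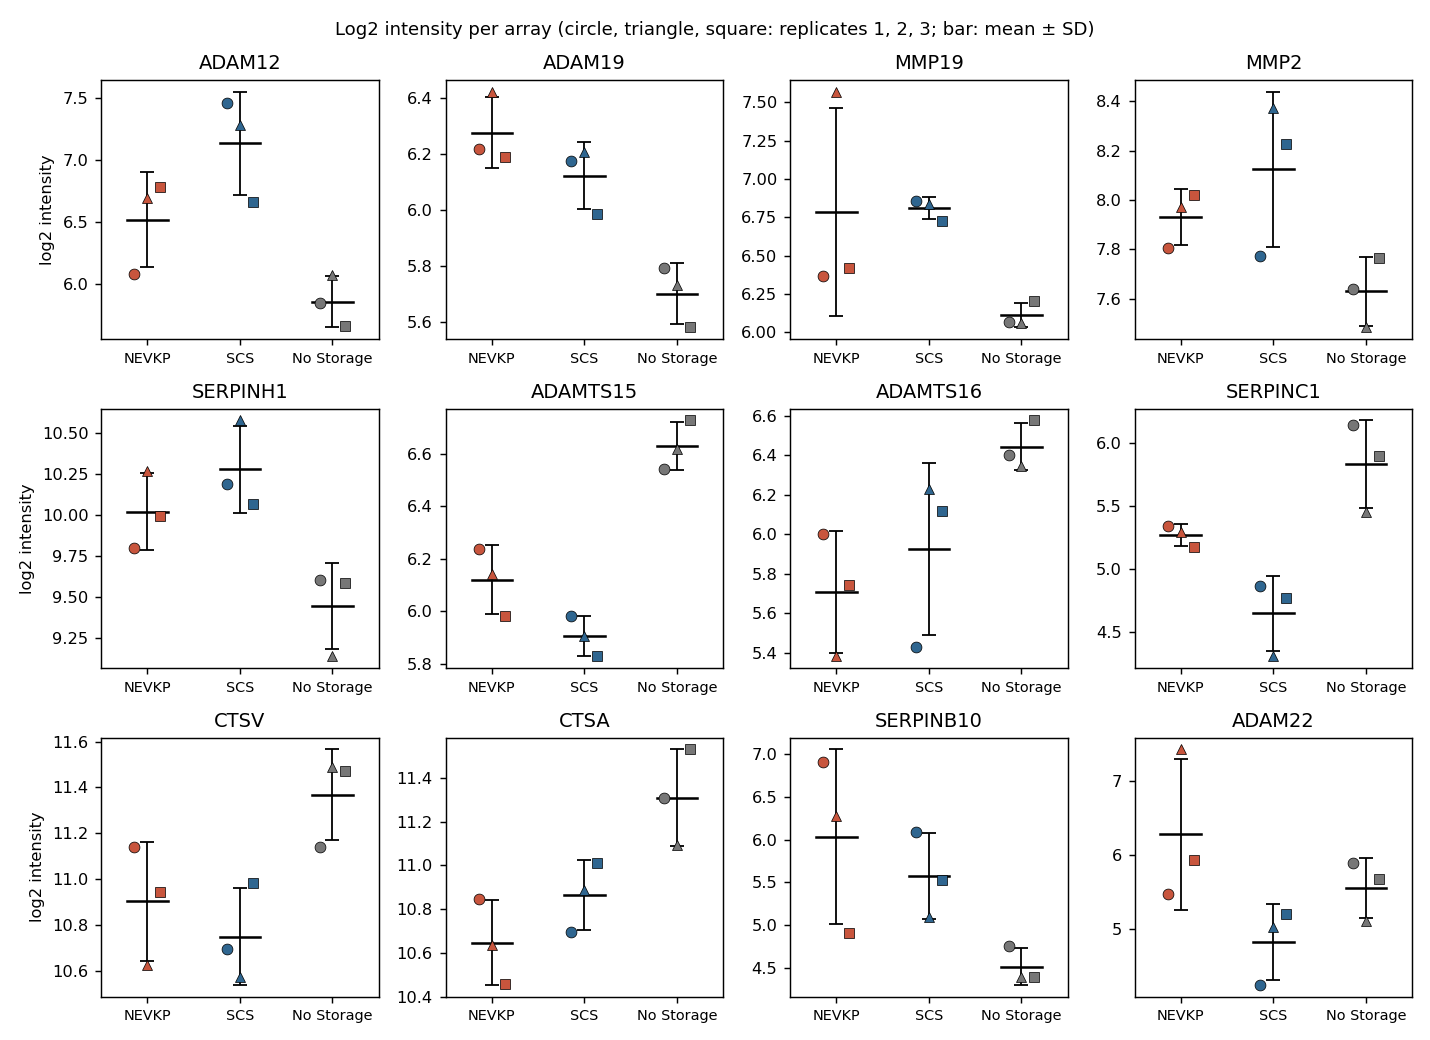
Log2 intensity of 12 genes on each of 9 arrays (points) with group means and SD (n = 3). ADAM12, ADAM19, MMP19 and SERPINH1 are higher in all NEVKP and SCS kidneys than in No Storage kidneys, and ADAMTS15, ADAMTS16 and CTSA are lower.

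Among the 17 secreted ADAMTS and ADAMTS-like genes, 11 were higher in NEVKP kidneys and 13 in SCS kidneys than in No Storage kidneys. The member of smallest p ran the other way. ADAMTS15, a proteoglycan-cleaving enzyme that cuts versican and aggrecan, read 6.24, 6.14 and 5.98 in NEVKP kidneys, 5.98, 5.91 and 5.83 in SCS kidneys and 6.54, 6.62 and 6.73 in No Storage kidneys. All 6 stored kidneys were lower than all No Storage kidneys, and the spread within each group was small. The difference was -0.72 for SCS minus No Storage (SE 0.12, 95% interval -0.99 to -0.45, limma adjusted p = 0.0513) and -0.51 for NEVKP minus No Storage (adjusted p = 0.373). Its neighbour in the RefSeq annotation, ADAMTS8, differed by 0.18 for SCS and 0.05 for NEVKP relative to No Storage. ADAMTS16, linked to blood pressure in rats, read 6.0, 5.38 and 5.74 in NEVKP kidneys, 5.43, 6.23 and 6.12 in SCS kidneys and 6.40, 6.35 and 6.58 in No Storage kidneys. It too was lower in every stored kidney, with differences of -0.73 for NEVKP minus No Storage (SE 0.22, adjusted p = 0.428, limma) and -0.52 for SCS minus No Storage (adjusted p = 0.304), or -0.27 without SCS replicate 1.

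The other proteoglycan-cleaving members were on the higher side. ADAMTS9, a versican-cleaving enzyme, read 7.96, 7.82 and 7.87 in NEVKP kidneys, 8.28, 8.40 and 8.04 in SCS kidneys and 7.79, 7.77 and 7.68 in No Storage kidneys. SCS kidneys were above both other groups without overlap, by 0.49 over No Storage (SE 0.13, limma adjusted p = 0.116), and the NEVKP minus SCS difference was -0.36 (adjusted p = 0.603). ADAMTS4 and ADAMTS5 are the aggrecanases of cartilage. ADAMTS5 differed by 0.24 in NEVKP kidneys (95% interval -0.25 to 0.74) and 0.30 in SCS kidneys (-0.20 to 0.79). These values were 0.030 without NEVKP replicate 2, 0.46 without NEVKP replicate 1 and 0.12 without SCS replicate 2. ADAMTS4, named after its values were seen, differed by 0.48 in NEVKP and 0.60 in SCS kidneys (limma adjusted p = 0.495 and 0.153). The 3 enzymes that remove the amino-terminal propeptide of fibrillar procollagen had higher means in SCS than in No Storage kidneys. ADAMTS2 differed by 0.17, ADAMTS14 by 0.08 and ADAMTS3 by 0.71 (limma adjusted p = 0.641, 0.816 and 0.223). The SCS and No Storage arrays overlapped for ADAMTS2 and ADAMTS14. For NEVKP minus No Storage the 3 genes differed by 0.08, -0.04 and 0.37. All 3 were likewise named after their values were seen. ADAMTSL4, a fibrillin-binding protein with no protease domain, differed by 0.39 for SCS minus No Storage and -0.30 for NEVKP minus SCS (limma adjusted p = 0.175 and 0.648), the second being -0.20 without SCS replicate 2.

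Of the 9 cathepsins, the carboxypeptidase CTSA was lower in all stored kidneys, and the cysteine cathepsins CTSV and CTSC were lower in all SCS kidneys while their NEVKP arrays overlapped with No Storage. No other cathepsin had a stored group wholly below No Storage. CTSA, protective protein, shields beta-galactosidase and neuraminidase in the lysosome. It read 10.84, 10.64 and 10.46 in NEVKP kidneys, 10.69, 10.89 and 11.01 in SCS kidneys and 11.31, 11.09 and 11.53 in No Storage kidneys. No stored kidney reached the lowest No Storage value, and the differences were -0.66 for NEVKP minus No Storage (SE 0.16, limma adjusted p = 0.373) and -0.45 for SCS minus No Storage (adjusted p = 0.214). The probe set named CTSV read 11.14, 10.63 and 10.94 in NEVKP kidneys, 10.69, 10.57 and 10.98 in SCS kidneys and 11.14, 11.49 and 11.47 in No Storage kidneys. All 3 SCS kidneys were below No Storage, with a difference of -0.62 (SE 0.17, limma adjusted p = 0.139), and NEVKP kidneys differed by -0.47 (adjusted p = 0.491). The RefSeq table gives CTSL as an older name of this pig gene. CTSL and CTSV are close relatives whose probes may share targets, so the identity of both is uncertain. The probe set named CTSL went the other way, with 6.67, 7.68 and 7.46 in NEVKP kidneys, 7.88, 7.13 and 7.92 in SCS kidneys and 7.14, 7.12 and 6.66 in No Storage kidneys, a difference of 0.67 for SCS minus No Storage (limma adjusted p = 0.303).

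CTSW, a cathepsin of cytotoxic T and natural killer cells, read 5.59, 6.12 and 5.32 in NEVKP kidneys, 5.26, 5.59 and 5.01 in SCS kidneys and 5.16, 5.14 and 5.16 in No Storage kidneys. All 3 NEVKP kidneys were above No Storage, by 0.52 (SE 0.21, limma adjusted p = 0.518), and by 0.30 without NEVKP replicate 2. The 10 T and NK cell markers listed, all measured and 1 of them dim, averaged 0.38, 0.42 and 0.28 above the No Storage mean in NEVKP kidneys, 0.13, 0.18 and -0.02 in SCS kidneys and 0.12, -0.20 and 0.07 in No Storage kidneys. In whole biopsies, a change in the number of cells of a type and a change in RNA per cell cannot be told apart. The part of T and NK cells in CTSW was not tested. CTSK, the collagen-degrading cathepsin of osteoclasts and fibroblasts, differed by 0.39 for NEVKP and 0.25 for SCS relative to No Storage, with 95% intervals of -0.11 to 0.88 and -0.25 to 0.74. These were 0.15 without NEVKP replicate 2 and 0.10 without SCS replicate 2. CTSO, a lysosomal cathepsin, differed by 0.40 for NEVKP, or 0.25 without NEVKP replicate 1, and by 0.17 for SCS. CTSC, which activates granule serine proteases of leukocytes, read 11.34, 11.29 and 10.96 in NEVKP kidneys, 11.08, 11.12 and 11.14 in SCS kidneys and 11.39, 11.40 and 11.33 in No Storage kidneys, with differences of -0.18 for NEVKP and -0.26 for SCS (limma adjusted p = 0.715 and 0.374). CTSZ, a carboxypeptidase, differed by 0.32 for NEVKP, with 0.19 to 0.48 when single arrays were left out, and by 0.01 for SCS. CTSH, an aminopeptidase, differed by 0.17 for NEVKP and -0.03 for SCS, and its NEVKP arrays lay above both other groups.

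The lysosome list other than cathepsins gave context for CTSA and CTSV. Of its 23 measured genes none passed the adjusted threshold in SCS against No Storage, and at unadjusted p under 0.05 in limma 7 were lower and 3 higher (7.79% and 7.75% of all probe sets), with a median of -0.20. In NEVKP against No Storage 2 were lower and 2 higher (4.40% and 4.67% of all probe sets), with a median of -0.10. MCOLN1, a lysosomal calcium channel, differed by -0.70 and HEXA, a subunit of hexosaminidase, by -0.53 in SCS kidneys (limma adjusted p = 0.108 and 0.132), while NPC2, the lysosomal cholesterol carrier, differed by 0.59 (adjusted p = 0.116). The 6 proximal tubule markers measured, of 10 listed and none dim, averaged -0.13, -0.92 and -0.18 in NEVKP kidneys, -0.57, -0.63 and -0.22 in SCS kidneys and between -0.02 and 0.02 in No Storage kidneys, and their part in the lower CTSA and CTSV was not tested. Of the cystatins, the protein inhibitors of cysteine cathepsins, 4 were measured. None passed in limma and 2 were lower in SCS kidneys at unadjusted p under 0.05 (7.79% of all probe sets), with CST6 at -0.55 (adjusted p = 0.145).

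Among the 78 genes, the lowest SCS minus No Storage difference (SERPINC1) and the highest NEVKP minus No Storage difference (SERPINB10) belonged to serpins. SERPINC1, antithrombin, inhibits thrombin and activated factor X with heparin as its cofactor. It read 5.35, 5.29 and 5.18 in NEVKP kidneys, 4.87, 4.31 and 4.78 in SCS kidneys and 6.14, 5.45 and 5.90 in No Storage kidneys. The groups did not overlap in any comparison: SCS kidneys were lowest, NEVKP kidneys lay between and No Storage kidneys were highest. SCS kidneys had 0.441 times the No Storage level, a log2 difference of -1.18 (SE 0.20, 95% interval -1.62 to -0.74, limma adjusted p = 0.0513). NEVKP kidneys differed from No Storage by -0.56 (adjusted p = 0.462, limma) and from SCS kidneys by 0.62 (adjusted p = 0.599). The group means of distal nephron markers were also lowest in SCS kidneys, but this was not particular to them. Proximal tubule, podocyte and endothelial markers averaged -0.47, -0.12 and -0.17 in SCS kidneys and -0.41, -0.10 and -0.11 in NEVKP kidneys. The 5 thick ascending limb and distal markers measured, of 8 listed, averaged -0.16, 0.61 and 0.03 in NEVKP kidneys, -1.26, -1.34 and -0.46 in SCS kidneys and 0.23, -0.23 and 0.01 in No Storage kidneys. The 9 collecting duct markers averaged -0.47, -0.40 and -0.57 in NEVKP kidneys, -1.08, -0.83 and -0.56 in SCS kidneys and 0.04, 0.02 and -0.06 in No Storage kidneys. The NEVKP arrays overlapped with SCS for the collecting duct markers, and with No Storage for the thick ascending limb and distal markers. The part of these markers in SERPINC1 was not tested.

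Of the 8 secreted inhibitory serpins, SERPINC1 included, 2 had a higher mean in NEVKP kidneys and 3 in SCS kidneys than in No Storage kidneys. SERPINA5, the protein C inhibitor, differed by -0.24 for NEVKP and -0.28 for SCS relative to No Storage (limma adjusted p = 0.588 and 0.29). SERPINA1, alpha-1 antitrypsin, the inhibitor of neutrophil elastase, differed by -0.04 and -0.08, with 95% intervals of -0.36 to 0.27 and -0.40 to 0.23. SERPINF2, antiplasmin, differed by -0.60 for NEVKP (limma adjusted p = 0.591) and 0.00 for SCS. The NEVKP value was -0.31 without NEVKP replicate 2, -0.91 without NEVKP replicate 1 and -0.37 without No Storage replicate 2. SERPING1, the inhibitor of complement C1 proteases and kallikrein, read 9.22, 10.60 and 9.92 in NEVKP kidneys, 9.29, 10.06 and 9.54 in SCS kidneys and 9.54, 8.88 and 9.45 in No Storage kidneys. Its groups overlapped, and the NEVKP minus No Storage difference of 0.62 (limma adjusted p = 0.603) was 0.28 without NEVKP replicate 2.

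SERPINH1, the chaperone HSP47 that folds procollagen in the endoplasmic reticulum and inhibits no protease, read 9.80, 10.27 and 9.99 in NEVKP kidneys, 10.19, 10.58 and 10.06 in SCS kidneys and 9.60, 9.14 and 9.58 in No Storage kidneys. All 6 stored kidneys were above No Storage, by 0.58 for NEVKP (SE 0.19, limma adjusted p = 0.444) and 0.84 for SCS (95% interval 0.41 to 1.26, adjusted p = 0.094). SERPINF1, pigment epithelium-derived factor, an antiangiogenic protein, differed by 0.21 and -0.04. SERPINA6, the cortisol carrier, differed by 0.06 and -0.14.

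The intracellular clade B serpins were higher than No Storage for 4 of 5 genes in NEVKP kidneys and 4 of 5 in SCS kidneys, although 3 of the 5 were dim. SERPINB10, bomapin, a serpin of blood-forming and myeloid cells, read 6.91, 6.28 and 4.91 in NEVKP kidneys, 6.09, 5.09 and 5.53 in SCS kidneys and 4.76, 4.39 and 4.39 in No Storage kidneys. No stored kidney was as low as No Storage, and the NEVKP arrays were spread widely. The difference was 1.52 for NEVKP minus No Storage (SE 0.43, limma adjusted p = 0.398), with 1.08 to 2.08 when an NEVKP array was left out, and 1.05 for SCS minus No Storage (adjusted p = 0.279). SERPINB2 and SERPINB7, which lie close to SERPINB10 in the RefSeq annotation, were dim. SERPINB1, the inhibitor of neutrophil elastase inside leukocytes, differed by 0.22 for NEVKP and 0.08 for SCS relative to No Storage. The neutrophil markers, 6 of 8 measured and 3 of them dim, averaged -0.05, 0.29 and 0.27 in NEVKP kidneys, 0.76, 0.25 and 0.38 in SCS kidneys and -0.07, 0.15 and -0.08 in No Storage kidneys, and their part in the serpins was not tested. S100A12 (1.51) and LCN2 (0.54) had the largest SCS minus No Storage differences among these markers. For LCN2 the SCS and No Storage arrays overlapped. Its mean over all arrays was 9.32, against 3.33, 2.70 and 3.66 for the dim S100A8, S100A9 and MPO. S100A9, CXCR2, S100A8 and MPO differed by 0.32, 0.29, 0.15 and -0.03.

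**Figure D4:**
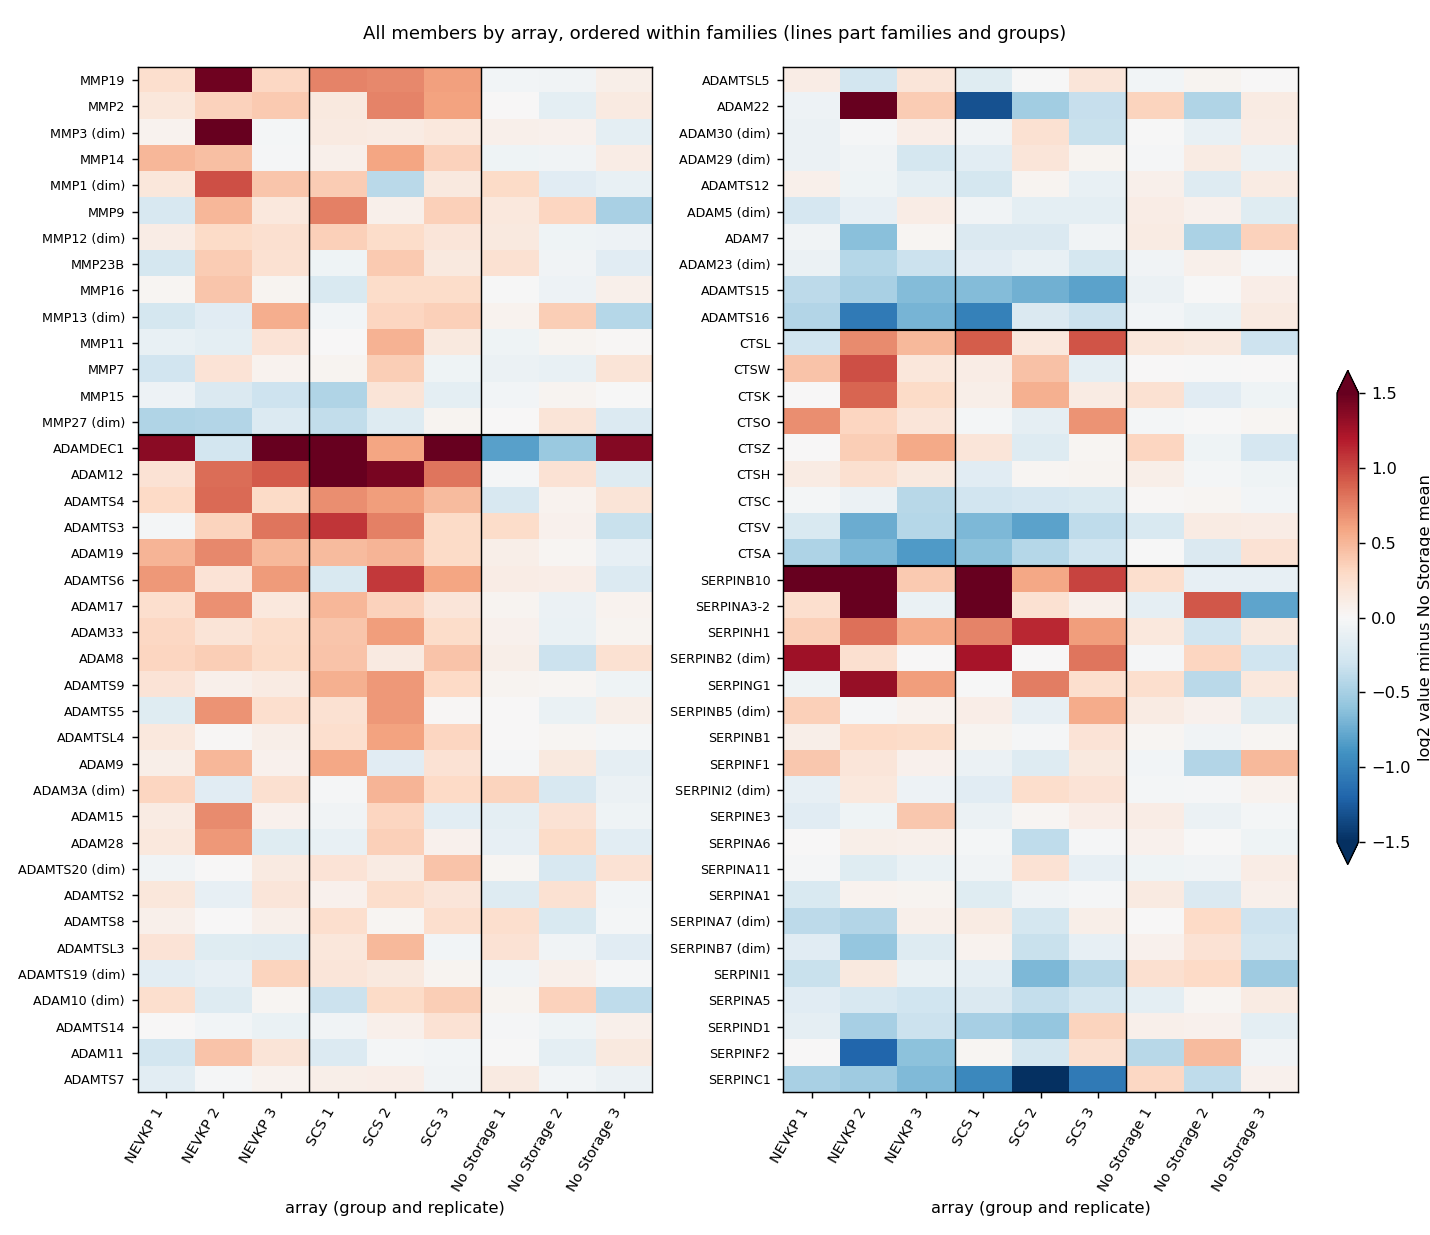
Log2 intensity of all 78 genes on each of 9 arrays, as the difference from the No Storage mean of the gene, with genes grouped by family; the colour scale ends at 1.5 in both directions. By group mean, 24 of 35 ADAM and 10 of 14 MMP genes are higher in NEVKP than in No Storage kidneys. In SCS kidneys 25 ADAM and 12 MMP genes are. The MMP mean of NEVKP replicate 1 is -0.03. ADAMTS15 and ADAMTS16 are among the lower rows, and CTS and SERPIN rows are mixed.

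Inhibitors, activators and substrates of these enzymes were set beside them. TIMP1, a tissue inhibitor of MMPs, read 9.42, 10.38 and 10.02 in NEVKP kidneys, 10.71, 10.34 and 10.10 in SCS kidneys and 8.95, 8.74 and 8.59 in No Storage kidneys. It rose in SCS kidneys, by 1.62 over No Storage (limma adjusted p = 0.048), while the NEVKP minus No Storage difference was 1.18 (adjusted p = 0.332). The SCS call ended when any 1 array other than SCS replicate 3 or NEVKP replicate 2 was left out, with limma adjusted p from 0.0317 to 0.203, and with the replicate block (0.0593). TIMP2 differed by 0.57 for NEVKP and 0.79 for SCS relative to No Storage. RECK, a membrane-anchored MMP inhibitor, differed by 0.26 and -0.30. Plasminogen activation supplies plasmin, which can activate pro-MMPs. Of its 6 measured genes none passed the adjusted threshold in limma, and at unadjusted p under 0.05 there were 2 higher and 0 lower in NEVKP kidneys (median 0.44, against 4.67% and 4.40% of all probe sets) and 4 higher and 1 lower in SCS kidneys (median 0.83, against 7.75% and 7.79%). PLAU, urokinase, read 7.41, 7.90 and 7.39 in NEVKP kidneys, 8.54, 8.13 and 8.27 in SCS kidneys and 7.27, 7.28 and 6.60 in No Storage kidneys. Its difference was 1.26 for SCS minus No Storage (SE 0.22, limma adjusted p = 0.0532) and -0.75 for NEVKP minus SCS (adjusted p = 0.572). PLAUR, the urokinase receptor, differed by 1.01 for NEVKP and 1.15 for SCS relative to No Storage (limma adjusted p = 0.384 and 0.0833).

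Of the 13 serine proteases on the list of serpin targets none passed in limma. At unadjusted p under 0.05, 3 were higher and 1 lower in NEVKP kidneys (median 0.19, against 4.67% and 4.40% of all probe sets), and 1 was higher and 0 lower in SCS kidneys (median 0.16, against 7.75% and 7.79%), the SCS count being near that background. Among the 7 measured partners of ADAM10 and ADAM17, which help these sheddases mature and reach the cell surface, none passed either, with 1 higher and 0 lower in NEVKP kidneys (median -0.21, against 4.67% and 4.40% of all probe sets) and 3 higher and 1 lower in SCS kidneys (median -0.18, against 7.75% and 7.79%) at unadjusted p under 0.05. RHBDF2, the inactive rhomboid iRhom2 that carries ADAM17 to the cell surface, differed by 0.47 for NEVKP and 0.56 for SCS relative to No Storage (limma adjusted p = 0.439 and 0.119). TSPAN33, a tetraspanin partner of ADAM10, differed by -0.22 and -0.68.

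The matrix proteins that MMPs and ADAMTS enzymes cut mostly had higher means in stored kidneys. None of the 14 measured passed the adjusted threshold in limma; at unadjusted p under 0.05, 6 were higher and 0 lower in NEVKP kidneys (median 0.45, against 4.67% and 4.40% of all probe sets), and 11 were higher and 0 lower in SCS kidneys (median 0.68, against 7.75% and 7.79%). Fibronectin (FN1) differed by 0.47 for NEVKP and 1.28 for SCS relative to No Storage (limma adjusted p = 0.557 and 0.0513), and COL1A1, the main collagen I chain, by 0.88 and 1.11 (adjusted p = 0.343 and 0.0592). Fibroblast markers, 8 of 9 measured and none dim, averaged 0.52, 0.63 and 0.36 in NEVKP kidneys, 0.58, 0.64 and 0.52 in SCS kidneys and 0.02, -0.07 and 0.06 in No Storage kidneys, with COL1A1, COL1A2, COL3A1 and DCN on both lists. The part of fibroblasts in the higher ADAM12, MMP2 and SERPINH1 was not tested.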

How the data were processed

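Kidney biopsies were measured on Affymetrix arrays, 9 in all. The authors deposited log2 intensities, summarised for each probe set with RMA, per the submitters' processing notes, which also name limma 3.34.14. The type of array is not given in the sources used here, nor is any filter. Symbols came from the array annotation. Of the 78 genes, 76 had a gene ID and 75 the same symbol in RefSeq (Sscrofa11.1). An ADAM2 probe set with several symbols was left out, 4 genes had several probe sets, and the SERPINA11 probe set carries more than 1 gene ID.

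All 9 arrays entered 1 linear model per probe set (limma 3.58.1, R 4.3.3, default prior in eBayes), with group as the only factor and 6 residual degrees of freedom. P-values are two-sided and were adjusted by Benjamini-Hochberg within each comparison over 19124 probe sets, with a threshold of 0.05. Family means were given no test. Dim means a mean under 3.92, the lowest 25%. The fit was run on simulated data with independent normal errors and no outlying arrays, so that run cannot speak to arrays that stand apart.

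Members and lists were chosen with earlier results of these data known, and the grouping by role was written after values were seen. Named genes were the 4 of smallest p per family and comparison and 25 fixed genes (19 measured). This named 40 genes, whose values were followed under the alternatives. Genes of highest and lowest mean, and up to 3 per related list, were a separate choice that added none to the 40. Alternatives were the replicate number as a block, weights per array, a prior with trend that was robust, median-centred arrays, dim probe sets left out, averaged probe sets of a gene, each array left out in turn, and only the compared groups in the model. Omission of both arrays of lowest weight and of identical probe sets was added after seeing the data. The number of arrays, 3 per group, limits the precision.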

Additional observations from a re-analysis of the deposited data

How the results depend on the processing

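In NEVKP minus No Storage, NEVKP minus SCS and the F test, 0 genes passed an adjusted p of 0.05 under every alternative run. In SCS minus No Storage the count of 0 became 2 (ADAMTS15 and SERPINC1) with a trended and robust prior, with array weights, without the dimmest 25%, with centred arrays and with averaged probe sets of a gene, and ranged from 0 to 3 when single arrays were left out. The adjusted p ran over the alternatives from 0.0358 to 0.226 for ADAMTS15, from 0.0358 to 0.225 for SERPINC1 and from 0.0332 to 0.265 for ADAM12. Counts at unadjusted p under 0.05 ranged from 12 to 21 (SCS minus No Storage), 8 to 21 (NEVKP minus No Storage) and 3 to 8 (NEVKP minus SCS) when single arrays were left out, and the last was 3 without both arrays of lowest weight. Of 2145 values of named genes under alternatives, 2131 kept their side of the threshold and 14 passed it, and 70 had the opposite sign.

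With the replicate number as a block, 0 genes passed in every comparison, and 16, 13 and 4 had an unadjusted p under 0.05 in SCS minus No Storage, NEVKP minus No Storage and NEVKP minus SCS. The numbers were not taken as pairs: residuals of same-numbered arrays correlated at -0.14 to 0.13.

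The ADAM mean of 0.13 for NEVKP minus No Storage was 0.18 without dim probe sets and 0.078 with centred arrays. With the median over members in place of the mean, it was 0.19, and 0.29 for SCS minus No Storage. The same change gave 0.27 for CTS and 0.21 for SERPIN in NEVKP minus No Storage, and 0.27 for CTS and 0.17 for SERPIN in NEVKP minus SCS. The ADAM and MMP differences from No Storage kept their sign under every alternative run. With 3 arrays per group, and 18 of 78 genes dim, small differences were not detectable, and differences above a doubling could also miss the threshold. SERPINB10 did so at 1.52 for NEVKP minus No Storage and ADAM22 at 1.45 for NEVKP minus SCS (limma adjusted p = 0.398 and 0.599).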

Other observations

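By their mean differences, genes that lie close together in the RefSeq annotation of Sscrofa11.1 did not all differ in 1 direction. ADAM28, ADAMDEC1 and ADAM7 are neighbours, and in SCS minus No Storage they differed by 0.10, 1.46 and -0.16. The ADAM7 value had an SE of 0.23, and its SCS and No Storage arrays overlapped. The other ADAM7 probe set, which was dim, differed by 0.15 in the same comparison. The direction for ADAM7 thus depended on the probe set. ADAM28 is a protease of lymphocytes and epithelia, and ADAM7 is best known from the epididymis. SERPINA6, SERPINA1, SERPINA11 and SERPINA5 also lie in 1 stretch, with at most 3 other protein-coding genes from 1 to the next. For NEVKP minus No Storage these serpins differed by 0.06, -0.04, -0.10 and -0.24. SERPINA3-2, a pig relative of antichymotrypsin, read 4.50, 6.30 and 4.15 in NEVKP kidneys, 6.0, 4.48 and 4.32 in SCS kidneys and 4.11, 5.17 and 3.46 in No Storage kidneys, so that the spread within groups exceeded the differences between them. SERPIND1, heparin cofactor II, differed by -0.32 for NEVKP and -0.25 for SCS relative to No Storage, and SERPINI1, neuroserpin, by -0.10 and -0.41. None of these passed the adjusted threshold in limma, and all but SERPINA1, SERPINA5 and SERPINA6 were chosen after their values were seen.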
